A study of Mus musculus with 9 samples.

Results

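The Kruppel-like factors are transcription factors that bind GC-rich and CACCC-type DNA through zinc fingers at their carboxyl end. Transcripts of 9 of them, Klf2, Klf3, Klf4, Klf5, Klf6, Klf9, Klf10, Klf13 and Klf15, were followed by gene symbol through every array probe that carries the name. They are 9 of 19053 mouse genes with a probe, read by 15 probes. Detection, a signal brighter than at least 95% of the array's negative control beads on all 3 arrays of a group, was reached by 7 of the 9 genes and 11 of the 15 probes. Those 7 were among the 10024 genes that could be tested.

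Transcript levels were measured on 9 Illumina bead arrays, 3 for each of 3 groups of mouse cells. All mice carried Gt(ROSA)26Sortm1(EYFP)Cos, an EYFP reporter in the Rosa26 locus that Cre switches on, from a B6.129X1 stock with C57BL/6J given as the background; ages were not given in the sources used here. The first group, eCSCs, held c-kit-positive, CD45-negative endogenous cardiac stem cells grown to passage 4 in culture. The second, called YFP-positive cardiomyocytes, was sorted by fluorescence from the left ventricular apex 28 days after a single subcutaneous dose of 200 mg per kg isoproterenol, a beta-adrenergic agonist that damages heart muscle. A lentivirus brought Cre under c-kit control into these mice, so the reporter marks cells in which the virus acted and their progeny. Normal adult cardiomyocytes of these mice formed the third group. By their titles the YFP-positive samples arose in vitro, which the design text contradicts, and the protocol naming isoproterenol is attached to all 9 samples; neither point was settled. The study asked how far the new cardiomyocytes had differentiated.

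Nothing in the labels ties the 3 replicates to different mice or cultures, and the spread behind the p-values may therefore be technical. Each array detected between 15326 and 19048 of 45281 probes. YFP-positive replicate 2 stood apart, with 16802 probes detected against 19048 and 19002 and a mean correlation with the adult arrays of 0.922 against 0.876 and 0.88. All 12 cardiomyocyte markers were detected on every array of the YFP-positive and adult groups, whereas 9 of the 12, among them Myh6 and Actc1, were detected on no eCSC array. The probe that stands for Kit was detected on no eCSC array. Summed endothelial marker signal ran from 334 to 369 in eCSCs, with Pecam1 and Cdh5 undetected, from 18378 to 18860 in YFP-positive and from 5512 to 7269 in adult samples. Leukocyte markers summed to 133 to 497, 2200 to 8502 and 707 to 1099, and fibroblast markers to 983 to 1314, 8790 to 11145 and 2201 to 3314, in the same order. Smooth muscle and pericyte markers summed to 96 to 154, 10490 to 11184 and 5301 to 7783, and mast cell markers to 63 to 92, 1629 to 2552 and 97 to 135. A sum follows its brightest genes, as that of smooth muscle and pericytes follows Acta2 (mean log2 level 13.16 in YFP-positive and 11.99 in adult samples). Of 8 markers of that list tested as described below, 2 were higher and 2 lower in YFP-positive than in adult cells. Their median log2 difference was 0.15, and 50% were called, against 50.5% of all genes. Between adult cells and eCSCs the fibroblast markers were split, with 5 of 11 tested higher and 4 lower in adult cells. Their median log2 difference was -0.03, and 81.8% were called, against 75.2% of all genes. For RNA of a whole sample, fewer cells of a type and less RNA per cell cannot be told apart.

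As background, the family falls into groups by partner proteins and targets. Klf2 and Klf4 are flow-responsive factors of the endothelium, where the kinase ERK5 and MEF2 factors switch them on. Klf4 is also one of the reprogramming factors. Klf5 and Klf6 are early-response activators in smooth muscle and injured tissue. Klf3 recruits the corepressor CtBP, while Klf9, Klf10 and Klf13 recruit Sin3A. Klf9 and Klf15 respond to glucocorticoids, and Klf15 in heart muscle restrains hypertrophy and favours use of lipids and branched-chain amino acids.

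The bases just upstream of the annotated start are shown for 4 of the 7 members with a RefSeq window, which Klf5 and Klf10 lack. They cover different patterns: Klf2 and Klf4, highest in YFP-positive cells, Klf6, low in adult cells as Klf4 also was, and Klf9, with no difference called. Each run is the 250 bases before the start on the gene's strand, 5′ to 3′, from RefSeq on GRCm38.p6. Capitals mark CACCC and the GC box GGGCGG on either strand, the letters that this family and the related SP factors are known to bind. The windows are chr8:72318812-72319061 on the plus strand for Klf2, chr4:55532476-55532725 on the minus strand for Klf4, chr13:5861239-5861488 on the plus strand for Klf6 and chr19:23140976-23141225 on the plus strand for Klf9.
Klf2: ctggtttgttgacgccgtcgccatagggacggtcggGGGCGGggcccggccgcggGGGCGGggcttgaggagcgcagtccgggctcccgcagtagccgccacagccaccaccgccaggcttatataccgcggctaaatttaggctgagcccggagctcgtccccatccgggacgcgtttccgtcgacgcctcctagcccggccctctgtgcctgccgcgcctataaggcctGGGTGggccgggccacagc
Klf4: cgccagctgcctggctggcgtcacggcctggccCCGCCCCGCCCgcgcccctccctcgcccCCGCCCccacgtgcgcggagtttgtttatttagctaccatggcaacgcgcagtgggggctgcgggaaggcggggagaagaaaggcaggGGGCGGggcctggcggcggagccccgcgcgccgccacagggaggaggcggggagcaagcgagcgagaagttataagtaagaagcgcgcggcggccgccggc
Klf6: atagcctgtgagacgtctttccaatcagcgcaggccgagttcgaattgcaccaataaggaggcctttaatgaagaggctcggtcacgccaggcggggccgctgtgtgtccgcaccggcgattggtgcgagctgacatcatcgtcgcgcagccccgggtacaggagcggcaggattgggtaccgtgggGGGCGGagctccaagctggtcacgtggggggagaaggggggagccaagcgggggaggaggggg
Klf9: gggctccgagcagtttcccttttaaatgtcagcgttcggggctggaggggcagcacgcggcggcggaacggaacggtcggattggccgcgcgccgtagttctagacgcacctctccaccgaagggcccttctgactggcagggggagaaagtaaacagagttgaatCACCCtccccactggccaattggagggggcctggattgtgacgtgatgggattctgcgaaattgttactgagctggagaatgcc

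The windows of the first 3 genes are rich in G and C, with 71.2% for Klf2, 74.0% for Klf4 and 64.8% for Klf6, and Klf9 stands at 59.6%, against a median of 52.4% over 32851 mouse promoters. On either strand, GGGCGG was found in 6 of the 7 members with a RefSeq window, all but Klf9, and in 32.7% of all windows. CACCC was found in 5 of 7 members (52.0% of all windows), and in neither Klf4 nor Klf6. The palindrome CACGTG, an E-box, was found in Klf4, Klf6 and Klf15, 3 of 7 members, against 6.02% of all windows. TGACG, the core of the cyclic AMP response element, was found in 5 of 7 members, Klf2, Klf4, Klf9, Klf13 and Klf15, against 17.8%. CCAAT was found in 4 of 7 (33.8%). The full element TGACGTCA, which contains TGACG, the serum response element of Fos, a consensus MEF2 element and TATAAA were found in 0 of 7, against 1.55%, 0.0609%, 0.140% and 12.4% of all windows. These are matches of letters in a GC-rich group of windows, not binding sites.

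Levels below are normalized log2 signals of the brightest detected probe of a gene, and differences are on the same log2 scale with a standard error (SE). A difference is called where limma's moderated test, adjusted by Benjamini-Hochberg over 10024 genes, gives an adjusted p under 0.05. Levels of different genes come from different probes and are not set against each other.

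Klf2 keeps blood vessel endothelium and resting lymphocytes quiescent. In eCSCs its level was 8.43, 9.07 and 9.09 in replicates 1 to 3, in YFP-positive cells 10.49, 10.29 and 10.26, and in adult cardiomyocytes 7.71, 9.11 and 8.15. All 3 YFP-positive samples were above all others, and adult replicate 2 lay just above the highest eCSC sample while the other adult samples lay below the lowest. Klf2 was 2.79-fold higher in YFP-positive cells than in eCSCs (log2 difference 1.48 ± 0.29 SE, adjusted p = 3.91e-04) and 4.06-fold higher than in adult cells (2.02 ± 0.29, adjusted p = 8.24e-05). Between adult cells and eCSCs the difference of -0.54 was not called (adjusted p = 0.107). It was called without adult replicate 2 (-0.93, adjusted p = 0.00324) and without eCSC replicate 1 (-0.76, adjusted p = 0.0479). It was also called with median scaling (-1.46, adjusted p = 0.00252) and with no normalization (-1.58, adjusted p = 0.00168).

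Klf4, a factor of vascular, epithelial and pluripotent cells, was also highest in YFP-positive cells. Its level was 8.19, 8.09 and 8.64 in eCSCs, 9.53, 8.93 and 9.31 in YFP-positive cells, and 5.19, 6.69 and 5.90 in adult cells. The 3 groups did not overlap, and the adult samples spread most, with an SD of 0.75. Klf4 was 1.93-fold higher in YFP-positive cells than in eCSCs (0.95 ± 0.30, adjusted p = 0.0118). The call ended on leaving out eCSC replicate 2 (0.84, adjusted p = 0.0505) and without the detection filter, which tests 19053 genes (adjusted p = 0.0601). Against adult cells Klf4 was 10.02-fold higher in YFP-positive cells (3.33 ± 0.30, adjusted p = 1.22e-06) and 5.195-fold higher in eCSCs (adult minus eCSC -2.38 ± 0.30, adjusted p = 5.52e-06).

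Klf4 was read by 3 detected probes, and they gave like values. Between YFP-positive cells and eCSCs the other probes differed by 0.75 and 0.80, and between YFP-positive and adult cells by 2.93 and 2.70. Between adult cells and eCSCs they differed by -2.18 and -1.90. Each of these 6 differences was called in the fit over 15637 probes (adjusted p = 0.0144 or lower).

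**Figure D1:**
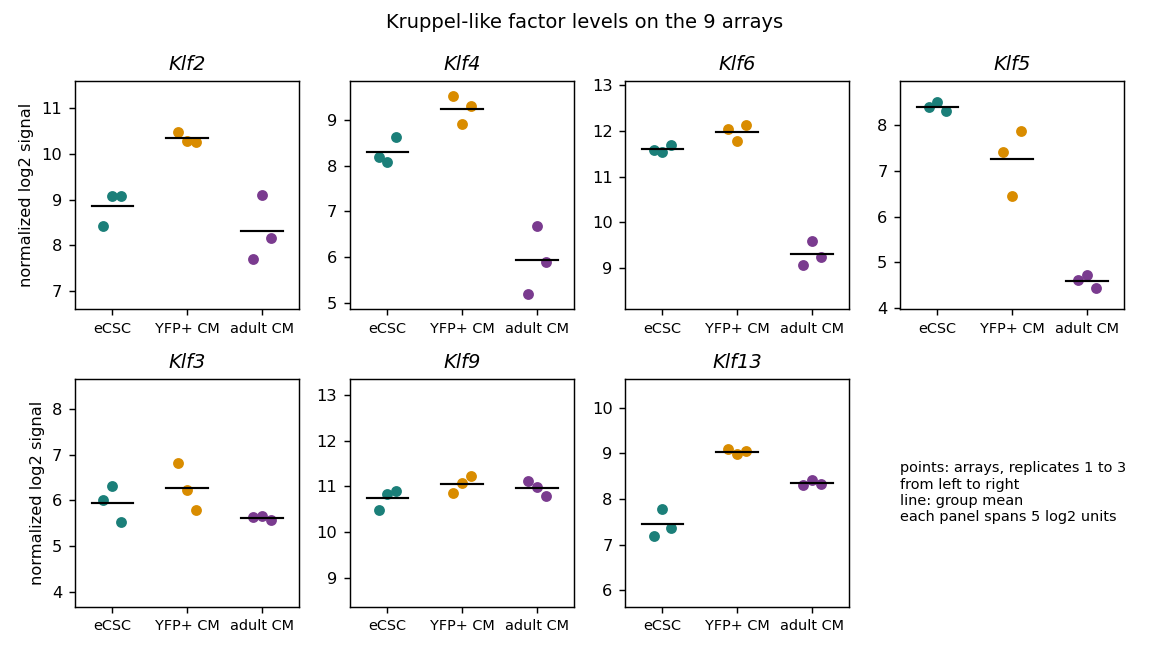
Normalized log2 signal of the 7 tested Kruppel-like factors on each array, by group, with replicates 1 to 3 from left to right in a group and a line at the group mean; every panel spans 5 log2 units. Klf2, Klf4 and Klf13 are highest on the 3 YFP-positive (YFP+ CM) arrays, Klf4, Klf5 and Klf6 are lowest on the 3 adult (adult CM) arrays, and the groups overlap for Klf9.

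Klf6, first described as a GC-box factor induced in injured liver and vessels, was lower in adult cells than in both other groups. Its level was 11.58, 11.54 and 11.69 in eCSCs, 12.04, 11.78 and 12.13 in YFP-positive cells and 9.06, 9.59 and 9.24 in adult cells. Every adult sample lay below every sample of the other groups. Klf6 was 6.42-fold higher in YFP-positive than in adult cells (2.68 ± 0.18, adjusted p = 5.68e-08) and 4.94-fold lower in adult cells than in eCSCs (-2.30 ± 0.18, adjusted p = 3.02e-08). The YFP-positive samples were all above the eCSC samples, but the difference of 0.38 ± 0.18 missed the threshold (adjusted p = 0.0727, 95% interval -0.01 to 0.77). It passed without YFP-positive replicate 2 (0.48, adjusted p = 0.0374), in the authors' series matrix values (0.55, adjusted p = 0.00213) and in 4 further settings. The second Klf6 probe, detected on 1 of 3 adult arrays, gave 2.28, -1.95 and 0.34 for the 3 differences in that order, and called the first and second of them.

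Klf5, an activator of growth genes in smooth muscle, epithelium and pluripotent cells that also drives fatty acid genes in heart muscle, fell stepwise across the groups. Its level was 8.41, 8.50 and 8.32 in eCSCs, 7.42, 6.46 and 7.88 in YFP-positive cells, and 4.61, 4.72 and 4.44 in adult cells. No adult array detected it, with detection p of 0.109, 0.0801 and 0.288, so that the adult level is only a bound. Taking each adult array's dimmest detected signal as the limit, or Klf5's own signal where brighter, Klf5 was at least 11.7-fold higher in eCSCs (adjusted p = 1.11e-08) and at least 5.25-fold higher in YFP-positive cells (adjusted p = 3.79e-06). These bounds hold for background-corrected signals, and the differences were smaller in the authors' processed values.

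Of the 4 members called between YFP-positive cells and eCSCs, Klf5 was the one that fell (-1.16 ± 0.27, adjusted p = 0.00158). The size rested in part on YFP-positive replicate 2, the lowest of its group: without it the difference was -0.76 (adjusted p = 0.00311). A second Klf5 probe was undetected on all 9 arrays, also in eCSCs, where the first probe was detected on all 3. Which forms of the transcript the probes read was not tested.

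Among the members known as repressors, Klf13 had the clearest difference. Klf13, first studied in blood and lymphoid cells and in the developing heart, had levels of 7.19, 7.78 and 7.37 in eCSCs, 9.09, 8.99 and 9.05 in YFP-positive cells and 8.31, 8.42 and 8.34 in adult cells. The groups did not overlap, with eCSCs lowest, adult cells between and YFP-positive cells highest. It was 3.02-fold higher in YFP-positive cells than in eCSCs (1.59 ± 0.18, adjusted p = 1.61e-06), 1.88-fold higher in adult cells than in eCSCs (0.91 ± 0.18, adjusted p = 2.99e-04) and 1.61-fold higher in YFP-positive than in adult cells (0.69 ± 0.18, adjusted p = 0.00538). The second Klf13 probe rose by 0.83 and 0.47 over eCSCs (adjusted p = 0.00187 and 0.0456 over all probes). Its difference of 0.36 between the cardiomyocyte groups was not called (adjusted p = 0.158).

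Klf3, a CtBP-dependent repressor, was dim in all groups. Its level was 6.01, 6.31 and 5.52 in eCSCs, 6.81, 6.22 and 5.79 in YFP-positive cells and 5.63, 5.65 and 5.56 in adult cells. The eCSC samples overlapped both other groups, and neither difference from eCSCs was called (0.33, adjusted p = 0.25 for YFP-positive and -0.33, adjusted p = 0.242 for adult cells). The adult difference was called in 4 other settings: under median scaling (-0.96, adjusted p = 0.00681), on values left unnormalized (-1.085, adjusted p = 0.00455) and in the authors' gene-level tables (-0.36 and -0.34, adjusted p = 0.00116 and 0.00233). The YFP-positive samples were all above the adult samples by a small margin (0.66 ± 0.25, adjusted p = 0.0402). Leaving out any single adult sample, eCSC replicate 1 or YFP-positive replicate 1 or 2 ended that call, as did omitting the background correction (0.27, adjusted p = 0.0918) or the detection filter (adjusted p = 0.114), and without YFP-positive replicate 1 the difference was 0.39 (adjusted p = 0.205).

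Klf9, a glucocorticoid- and thyroid-hormone-responsive repressor, overlapped among all 3 groups. Its level was 10.48, 10.82 and 10.90 in eCSCs, 10.85, 11.07 and 11.24 in YFP-positive cells and 11.12, 10.99 and 10.79 in adult cells. The difference between YFP-positive and adult cells was 0.08, with a 95% interval from -0.31 to 0.47 (adjusted p = 0.731). Against eCSCs it was 0.32 with an interval from -0.07 to 0.70 in YFP-positive cells (adjusted p = 0.129) and 0.23 with an interval from -0.15 to 0.62 in adult cells (adjusted p = 0.255). The YFP-positive difference was called in the series matrix values (0.34, adjusted p = 0.0347) and with array weights (0.44, adjusted p = 0.0259). The sign of both differences from eCSCs turned under another scaling, given below.

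Klf10, the TGF-beta-inducible early gene, and Klf15 could not be tested. The first Klf10 probe was undetected on every array. The other was above the limit on adult replicate 2 alone, where its detection p was 0.0150 and its raw signal 106.4, against 92.1 to 118.2 on the 6 eCSC and YFP-positive arrays and 89.7 and 95.7 on the remaining adult arrays. Klf15 had 1 probe, detected on none of the 9 arrays, with raw signals from 93 to 118.6. A probe that does not rise above the controls does not show that the transcript is absent.

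**Figure D2:**
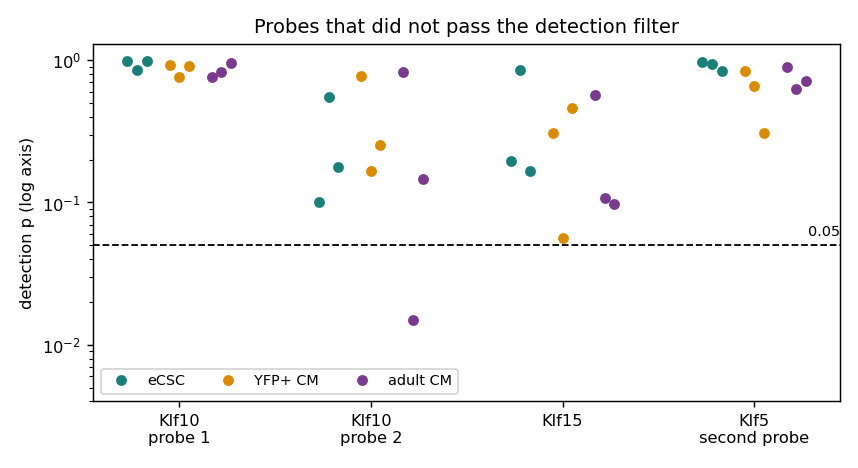
Detection p on a log axis, 1 point per array, for the 4 probes of the named factors that did not pass the detection filter, with the limit of 0.05 dashed. Of these 36 points the one below the limit is Klf10 probe 2 on adult replicate 2, at 0.0150; the nearest other is Klf15 on YFP-positive replicate 2, at 0.0566.

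Counting the 7 tested members, YFP-positive cells differed from eCSCs for 4, with Klf2, Klf4 and Klf13 higher and Klf5 lower. This share was below the background, since 73.0% of all genes were called in that comparison, 34.4% higher and 38.6% lower, and the members' median difference was 0.38 against -0.10 over all genes. The groups did not overlap for 5 of 7 members, as for 76.1% of all genes. Of 11 detected member probes 6 were called higher and 1 lower, against 71.8% of all probes called. Without YFP-positive replicate 2 the count was 5.

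Adult cells differed from eCSCs for 4 of 7 members, with Klf13 higher and Klf4, Klf5 and Klf6 lower, against 75.2% of all genes, 35.8% higher and 39.4% lower. The median over the members was -0.54 and over all genes -0.05. The groups did not overlap for 4 of 7 members, as for 77.7% of all genes, and 2 member probes were called higher and 6 lower of 11, against 74.6% of all probes called. Without adult replicate 2, 5 were called, Klf2 joining those that were lower.

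Between the cardiomyocyte groups, 6 of 7 members were higher in YFP-positive than in adult cells and none was lower, while 50.5% of all genes were called, 22.8% higher and 27.7% lower. The median over the members was 2.02 and over all genes -0.08. The 6 were Klf2, Klf3, Klf4, Klf5, Klf6 and Klf13, and the same 6 had groups that did not overlap, as had 26.1% of all genes in this direction. Of 11 detected member probes 9 were called higher and 0 lower, against 20.4% and 27.5% of all probes and 47.9% in either direction. Without YFP-positive replicate 2 the count was 5 of 7, all higher. These 3 comparisons share samples and are not independent of one another.

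**Figure D3:**
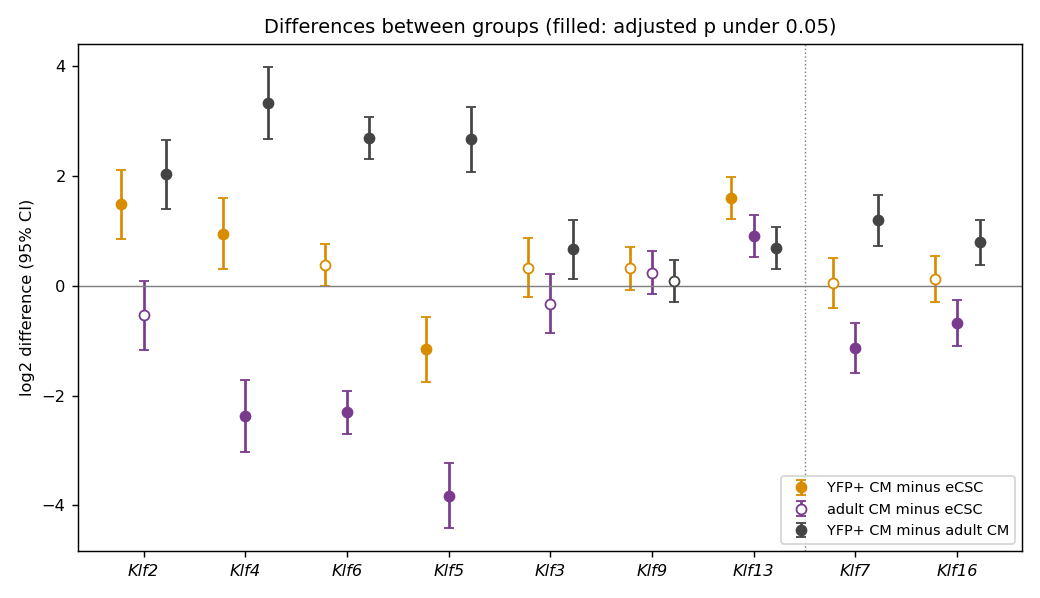
Log2 differences with 95% confidence intervals for the 7 tested members and, right of the dotted line, Klf7 and Klf16; filled points have an adjusted p under 0.05. The black points, YFP-positive minus adult cells, are filled and above 0 for every gene but Klf9, with 3.33 for Klf4 the highest.

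The scaling between arrays bears on the comparisons with eCSCs. Scaling each array to its median in place of quantile normalization moved the median of all genes from -0.10 to -0.49 for YFP-positive minus eCSC, from -0.05 to -0.68 for adult minus eCSC and from -0.08 to 0.16 for YFP-positive minus adult. The share of called genes that were higher went from 47.1% to 34.9%, 47.6% to 29.4% and 45.1% to 73.1%. Relative to the median of all genes, the differences of Klf2, Klf4 and Klf13 between YFP-positive cells and eCSCs were 1.58, 1.05 and 1.70 with quantile normalization and 1.24, 0.73 and 1.43 with median scaling. Before that subtraction the Klf2 and Klf4 calls were lost with median scaling (0.75, adjusted p = 0.0805 and 0.24, adjusted p = 0.593), as was that of Klf13 in adult cells against eCSCs (0.00, adjusted p = 0.993, and 0.68 relative to the median of all genes). In that comparison Klf2 and Klf3 gained a call as lower, with -1.46 and -0.96 (-0.78 and -0.28 relative to the median of all genes), so that 0 members were higher and 5 lower. Klf9 turned to -0.38 and -0.46 against eCSCs in YFP-positive and adult cells, and Klf6 to -0.20 in YFP-positive cells, none of them called. The 6 calls between YFP-positive and adult cells, that of Klf5 against an undetected level among them, stood under both scalings, with relative differences of 2.05 for Klf2, 3.32 for Klf4, 2.72 for Klf6, 0.86 for Klf3 and 0.78 for Klf13 under median scaling.

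**Figure D4:**
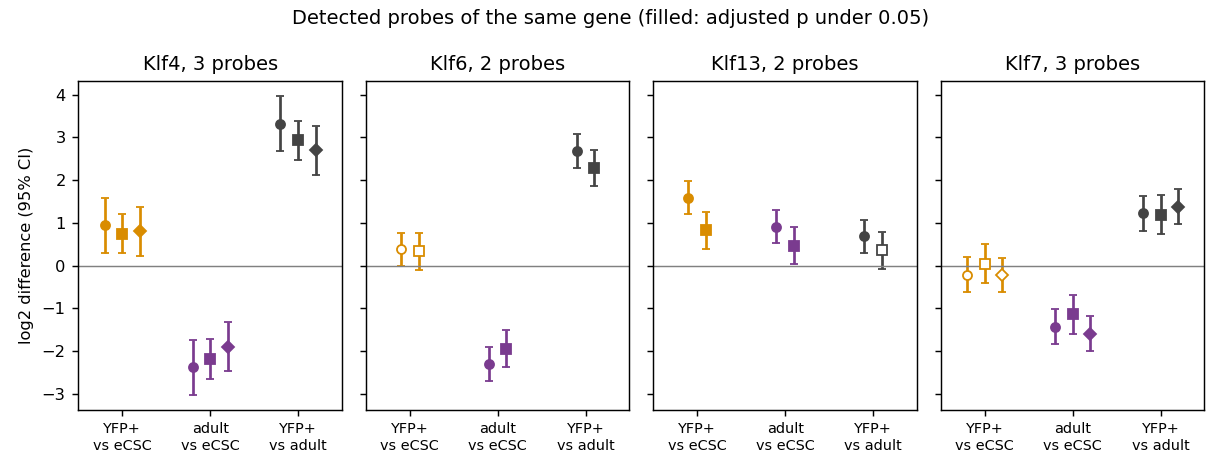
Log2 differences with 95% confidence intervals for each detected probe of Klf4, Klf6, Klf13 and Klf7, 1 symbol shape per probe; filled symbols have an adjusted p under 0.05 over all probes. Probes of the same gene lie on the same side of 0 wherever both are filled, and the second Klf13 probe is the one that is open, at 0.36, between YFP-positive and adult cells.

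Of the 8 other family members with a probe, Klf7 and Klf16 were detected. Klf7, a regulator of neuronal and adipose genes, had levels of 9.31, 9.36 and 9.85 in eCSCs, 9.67, 9.76 and 9.24 in YFP-positive cells and 8.16, 8.69 and 8.25 in adult cells. It was lower in adult cells than in eCSCs (-1.14 ± 0.21, adjusted p = 2.09e-04) and higher in YFP-positive than in adult cells (1.19 ± 0.21, adjusted p = 4.71e-04), and its 3 probes were called alike in both. Klf16 gave -0.67 (adjusted p = 0.00607) and 0.78 (adjusted p = 0.00432) for the same comparisons. Between YFP-positive cells and eCSCs neither was called (0.05, adjusted p = 0.853 and 0.11, adjusted p = 0.616), and both signs turned under median scaling. Klf1, the erythroid member, was detected on some arrays but never on all 3 of a group, and Klf8, Klf11, Klf12, Klf14 and Klf17 were detected on none. Erythroid markers summed to 21 to 31 in eCSCs, 24413 to 30925 in YFP-positive and 774 to 1661 in adult samples.

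The SP factors share the family's zinc fingers, and 4 of 8 with a probe were tested. The tested probe of Sp1, the ubiquitous GC-box activator, was dim and detected on the 3 eCSC arrays alone, and was at least 1.15-fold lower in YFP-positive cells (adjusted p = 0.0415). In adult cells it was called lower as well (adjusted p = 0.0352), but the eCSC level was within the adult arrays' detection limit and no fold is given. The calls were lost in 13 and 11 of 19 other settings (adjusted p up to 0.199 and 0.144). This probe passed the filter through eCSCs alone, so the filter favoured a lower level elsewhere. A second Sp1 probe missed the filter, detected on 2 eCSC arrays, 1 YFP-positive array and no adult array. Sp3 was at least 1.57-fold lower in adult cells than in eCSCs (adjusted p = 1.1e-04), but gave 0.06 and 0.07 in the authors' gene-level tables. Sp4 and Sp8 were called in none of the comparisons.

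Proteins that work with the family moved in both directions. Of 11 tested cofactors, a list of corepressors, acetyltransferases and ubiquitin ligase parts, 2 were higher and 4 lower in YFP-positive cells than in eCSCs, and 3 were higher and 4 lower in adult cells, with medians of -0.27 and -0.30 against -0.10 and -0.05 over all genes. The list was called for 54.5% and 63.6%, against 73.0% and 75.2% of all genes. Fbxw7, the ubiquitin ligase subunit known to mark Klf2 and Klf5 for destruction, was higher in both (2.34 and 2.65, adjusted p = 1.67e-07 and 3.07e-08). The histone deacetylase Hdac3 was lower in both (-1.39 and -1.29, adjusted p = 2.41e-06 and 4.04e-06), and Ctbp2, a partner of Klf3, was lower by -0.98 and -1.34 (adjusted p = 2.3e-04 and 9.37e-06). Between YFP-positive and adult cells 0 were higher and 2 lower (18.2%, against 50.5% of all genes), Wwp1, a ligase known to act on Klf2 and Klf5 (-0.81, adjusted p = 0.00388), and the acetyltransferase Kat2b (-0.78, adjusted p = 0.00192).

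Of the kinases, MEF2 factors and class II deacetylases upstream of Klf2 and Klf4, 7 were tested. Against eCSCs, 5 of 7 tested were higher and 1 lower in YFP-positive cells, and 4 higher and 2 lower in adult cells, with medians of 0.67 and 0.56; 85.7% of the list was called in both, against 73.0% and 75.2% of all genes. Mef2c, a muscle and endothelial factor, differed by 3.78 and 3.40 (adjusted p = 1.14e-10 and 2.63e-10). Between YFP-positive and adult cells 2 were higher, the kinase Map3k3, which feeds ERK5 (0.95, adjusted p = 9.9e-04), and the deacetylase Hdac7 (1.39, adjusted p = 3.57e-05), and 0 were lower. That is 28.6% of the list, against 50.5% of all genes.

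Genes of the endothelium linked to Klf2 and Klf4, targets that are switched on or off among them, were mostly higher in YFP-positive cells. Of 16 tested, 14 were higher and 0 lower than in eCSCs and 14 were higher and 2 lower than in adult cells, while adult cells had 8 higher and 3 lower than eCSCs, with medians of 2.95, or 2.61 with undetected genes at their bound, 1.72 and 0.46, in that order. The list was called for 87.5%, 100% and 68.8%, against 73.0%, 50.5% and 75.2% of all genes. The angiopoietin receptor Tek, detected on 1 of 3 eCSC arrays so that the size is uncertain, differed from eCSCs by 5.41 (adjusted p = 2.4e-11). Icam1, an inflammatory adhesion molecule, exceeded the eCSC limit at least 34.8-fold (adjusted p = 8.45e-11) and differed from adult cells by 3.89 (adjusted p = 2.78e-08). Summed endothelial marker signal was highest in YFP-positive, next in adult and lowest in eCSC samples, as given above, with Pecam1 and Cdh5 undetected on every eCSC array. Tek and Tie1 are on both this marker list and the list linked to Klf2 and Klf4, so the lists are not independent. Klf2 and Klf4 had their highest means in YFP-positive and their lowest in adult cells. For Klf2 the difference between adult cells and eCSCs was not called. The part of endothelial signal in the Klf2 and Klf4 levels was not tested.

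Immediate early genes are induced within minutes by stress or growth factors. In YFP-positive cells 14 of 14 tested were higher against both other groups, with medians of 2.56 against eCSCs and 3.03 against adult cells. Of 17 with a probe, 14 were detected on all YFP-positive, 11 on all eCSC and 8 on all adult arrays, and Nr4a1 and Btg2 on none. Fos, Fosb and Egr2 passed the filter through the YFP-positive arrays alone, so the filter favoured their direction. Of all genes, 34.4% were higher in YFP-positive cells than in eCSCs and 22.8% higher than in adult cells. Adult cells differed from eCSCs in 7, with 2 higher and 5 lower, or 50% of the list against 75.2% of all genes. Fosb, an AP-1 subunit undetected on all eCSC and adult arrays, exceeded the limit of eCSCs at least 54.3-fold and that of adult cells at least 50.1-fold (adjusted p = 1.45e-11 and 4.88e-10). Their summed signal was 28186, 22328 and 27924 in YFP-positive replicates 1 to 3, 4521 to 5812 in eCSCs and 4408 to 5402 in adult samples. YFP-positive replicate 2, the lowest of its group here, was also the lowest for Klf4, Klf5, Klf6 and Klf13. It was the lowest for leukocyte markers (2200 against 8502 and 4285) and for fibroblast markers (8790 against 11145 and 10775) too. Endothelial markers (18378 against 18587 and 18860) and mast cell markers (1629 against 2387 and 2552) were lowest in the same replicate. Cardiomyocyte (200790) and erythroid (30925) markers were highest in it. Klf2 and Klf3 were lowest in YFP-positive replicate 3, and Klf9 and the smooth muscle and pericyte markers in YFP-positive replicate 1. Adult replicate 2 was the highest of its group for immediate early genes and for fibroblast markers (3314). It was also the highest for endothelial (7269 against 5512 and 7142) and cardiomyocyte (210138) markers. The same replicate was the highest for Klf2, Klf3, Klf4, Klf6 and Klf13 as well. Klf9 was highest in adult replicate 1, and leukocyte markers in adult replicate 3 (1099 against 1033 in replicate 2). Smooth muscle and pericyte (5301), mast cell (97) and erythroid (774) markers were lowest in adult replicate 2. The part of immediate early and marker signal in the levels of the members was not tested.

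Genes that respond to glucocorticoids, as Klf9 and Klf15 do, were higher for 7 and lower for 1 of 12 in YFP-positive cells against eCSCs, higher for 5 and lower for 4 in adult cells, and higher for 6 and lower for 0 in YFP-positive against adult cells. These are 66.7%, 75% and 50% of the list, near the 73.0%, 75.2% and 50.5% of all genes called. The kinase Sgk1 differed by 2.23 (adjusted p = 6.49e-05) and the phosphatase Dusp1, also counted as immediate early, by 1.51 (adjusted p = 1.13e-04) between YFP-positive and adult cells. Zbtb16, a zinc finger target of the receptor, was undetected in eCSCs and at least 2.78-fold higher in adult cells (adjusted p = 7.04e-05). Fkbp5, of the same list, went the other way between these groups (-2.53, adjusted p = 8.69e-06), detected on 2 of 3 adult arrays. The median of the list was -0.14 for adult minus eCSC, against -0.05 over all genes.

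Genes of branched-chain amino acid breakdown and other targets linked to Klf15 were mostly higher in both cardiomyocyte groups, while Klf15's own probe was undetected. Of 18 tested, 15 were higher and 1 lower in YFP-positive cells and 17 higher and 0 lower in adult cells than in eCSCs, with medians of 2.16 and 3.32 (3.17 with undetected genes at their bound). The list was called for 88.9% and 94.4%, against 73.0% and 75.2% of all genes. The phosphatase Ppm1k, which activates the branched-chain keto acid dehydrogenase, differed by 3.94 and 4.97 (adjusted p = 1.55e-10 and 9.8e-12). The insulin-responsive glucose transporter Slc2a4 was at least 37.9-fold and at least 92.4-fold higher (adjusted p = 2.57e-11 and 2.2e-12). Between YFP-positive and adult cells 17 of 18 were lower in YFP-positive cells and 0 higher (94.4%, against 50.5% of all genes called), with a median of -0.94. Kcnip2, the potassium channel subunit that Klf15 controls in mouse heart, differed by -1.55 (adjusted p = 1.63e-05) and Mccc2, of leucine breakdown, by -1.77 (adjusted p = 1.65e-05).

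Regulators and enzymes of fatty acid use linked to Klf5 and Klf15 were mostly higher in both cardiomyocyte groups than in eCSCs. Of 15 tested, 12 were higher and 1 lower in YFP-positive cells and 13 higher and 0 lower in adult cells than in eCSCs, and 7 were lower and 0 higher in YFP-positive than in adult cells, with medians of 3.24, 4.18 and -0.55. The remaining 8 were not called in that last comparison, where 46.7% of the list and 50.5% of all genes were called. Against eCSCs the list was called for 86.7% in both cardiomyocyte groups, and all genes for 73.0% and 75.2%. The coactivator Ppargc1a exceeded the eCSC limit at least 41.6-fold and at least 49.4-fold (adjusted p = 1.34e-12 and 8.08e-13). Ppara, a receptor whose gene Klf5 is known to activate in mouse heart, was detected on all adult arrays and on 1 of 3 YFP-positive arrays. It passed the filter through the adult arrays alone, and its difference of -1.12 (adjusted p = 3.59e-04) is uncertain in size. Klf5 itself was undetected in adult cells.

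Components of the TGF-beta pathway, which induces Klf10, were higher for 5 and lower for 2 of 11 in YFP-positive cells and higher for 2 and lower for 5 in adult cells against eCSCs, and higher for 6 and lower for 0 in YFP-positive against adult cells. These are 63.6%, 63.6% and 54.5% of the list, against 73.0%, 75.2% and 50.5% of all genes. The type II receptor Tgfbr2 differed between the cardiomyocyte groups by 1.80 (adjusted p = 7.37e-06). The corepressor Tgif1, undetected in adult cells, was at least 3.18-fold higher in YFP-positive cells (adjusted p = 2.4e-06).

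Of 10 other reprogramming and pluripotency factors, known partners of Klf4 among them, 4 were tested. Myc, the growth regulator used with Klf4 in reprogramming, had the order eCSC, YFP-positive, adult: it differed by -2.49 between YFP-positive cells and eCSCs (adjusted p = 5.7e-06) and, undetected in adult cells, was at least 1.78-fold higher in YFP-positive than in adult cells (adjusted p = 0.00285). Esrrb, an orphan receptor of pluripotent and heart muscle cells, was undetected in eCSCs and at least 15.3-fold higher in YFP-positive and 32.6-fold in adult cells (adjusted p = 1.26e-10 and 9.31e-12).

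Several genes had a profile over the 9 arrays close to a member, measured as the Euclidean distance between log2 levels centred on each gene's own mean, among 9766 tested genes. Nearest to Klf2 were Trib1, a pseudokinase (0.879), and Nfkbia, the inhibitor of NF-kappa B (0.936). Casp4, an inflammatory caspase (1.05), and Litaf (1.07) were nearest to Klf4, and the matrix gene Ecm1 (0.447) and Elmo1 (0.473) to Klf6. For Klf5 they were Plaur, the urokinase receptor (0.795), and Clspn, of the replication checkpoint (0.842). For Klf13 they were Hspg2, which encodes perlecan (0.431), and Gse1 (0.446), for Klf9 Rab7 (0.3) and Zfp653 (0.375), and for Klf3 Casp6 (0.663) and Sumo3 (0.668). A short distance means a like pattern in these 9 samples and no more, and genes with small differences between groups, such as Klf9, have near neighbours for that reason.

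**Figure D5:**
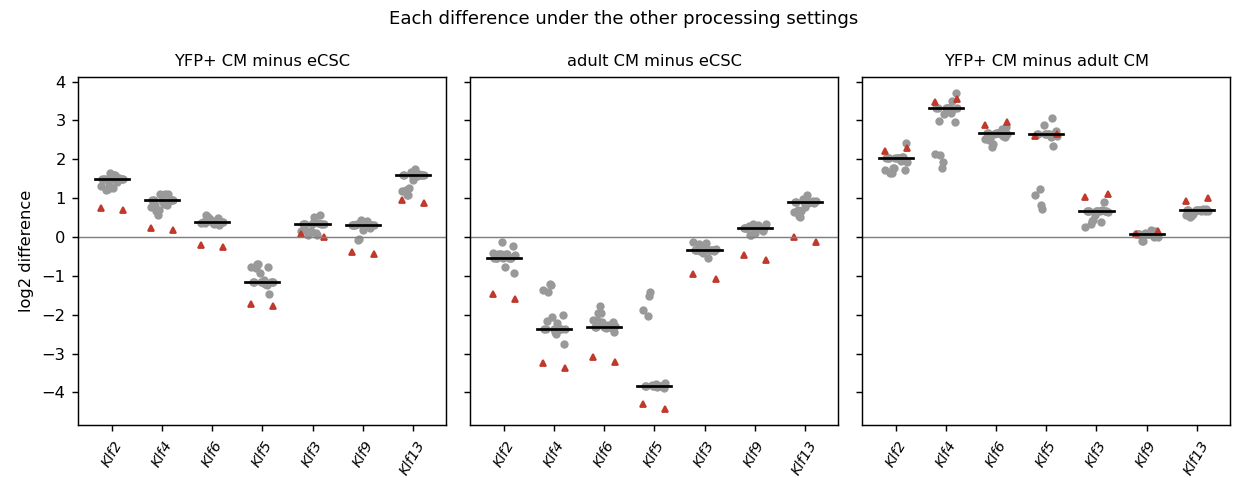
Log2 differences of the 7 tested members in each comparison as reported (black lines), under median scaling and no normalization (red triangles) and under the other settings (grey points), leave-one-out fits among them. The triangles lie below the lines against eCSCs, and in the comparisons with adult cells the grey points nearest 0 for Klf4 and Klf5 come from values without background correction or from the authors' processed tables.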

How the data were processed

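Biotinylated cRNA from the total RNA of 9 samples was read on Illumina bead arrays, per the labels' protocols. The authors deposited a probe table with 1 raw intensity per probe and array, neither normalized nor background subtracted. Beside each signal is a fraction that the file headers call a detection p-value; it rises with the signal, being the share of negative controls dimmer than the probe, and subtracting it from 1 gave the detection p. Gene-level intensities, and normalized gene-level and series matrix values on a log2-like scale, flattened near background, were deposited as well; lumi 2.10.0 and R 2.15.3 appear in the submitters' processing notes, and the method is not given in the sources used here. Because 5 normalized gene-level columns carry another replicate's number, these values were used by group only. A further 18 columns were not used.

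Signals were background corrected with the detection p-values (offset 16), quantile normalized and taken to log2 (neqc, limma 3.58.1, R 4.3.3). Of 45281 probes, 34885 had 1 symbol, updated through RefSeq GRCm38.p6. The filter asked for a detection p below 0.05 throughout the 3 arrays of some group, which left 15637 probes, and the brightest represented its gene (10024 genes). One limma model with a mean per group gave 3 two-sided comparisons with Benjamini-Hochberg adjustment over all genes. The number of arrays limits the precision. The fit was tested on simulated data. The members and lists were chosen with earlier results of these data known. All members were named, up to 4 genes of a list per comparison (the smallest adjusted p, with non-overlapping groups; not all are printed) and the 2 nearest profiles of each member. Marker sums add background-corrected normalized signals. Alternatives covered background, scaling, the filter, probe choice, the authors' values, array weights, a replicate block and leaving out each sample. The authors' raw gene-level intensities were quantile normalized and taken to log2 before they were fitted.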

Additional observations from a re-analysis of the deposited data

How the results depend on the processing

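The count of called members moved by over 1.5 times in 1 comparison: between YFP-positive cells and eCSCs, 4 were called as reported and 2 with median scaling or with no normalization (1 higher, 1 lower), where the median of all genes was -0.489 and -0.543. Leaving out each sample in turn gave 3 to 5 called members for YFP-positive minus eCSC, 4 to 5 for adult minus eCSC and 5 to 6 for YFP-positive minus adult. Same-numbered samples of different groups did not deviate together (r from -0.064 to 0.12, over 0.1 in 1 of 9 pairs). Low correlations cannot tell whether these samples share a mouse or a preparation. With the replicate number as a block the counts were 4, 4 and 6. Of 417 member differences recomputed, 373 kept their direction and side of the threshold, 15 lost the call, 16 gained one and 13 changed sign.

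For YFP-positive minus eCSC, the sign changed with median scaling and no normalization for Klf7 (-0.649 and -0.704), Klf9 (-0.382 and -0.437), Klf6 (-0.197 and -0.251) and Klf16 (-0.384 and -0.439). In the authors' normalized and raw gene-level tables it changed for Klf7 (-0.104 and -0.109), Klf9 (-0.0678 and -0.0461) and Klf16 (-0.0531 and -0.0320). Klf7 was also -0.127 as a mean of its probes, and leaving out 1 sample gave -0.0542 to 0.219 for Klf7 and -0.0296 to 0.319 for Klf16. With no normalization Map3k3, called higher as reported, was -0.0472 and Tsc22d3, also called higher, -0.00102. For adult minus eCSC, Klf9 was -0.463 and -0.591 under median scaling and no normalization, Klf13 -0.125 and Hdac4, called higher as reported, -0.0604 with no normalization, and Sp3 0.0566 and 0.0729 in the gene-level tables. For YFP-positive minus adult, these tables gave -0.110 and -0.0930 for Klf9 and -0.0320 and -0.0347 for Sp3, called higher as reported. Leaving out 1 sample gave -0.0102 to 0.183 for Klf9 in that comparison. The cause of these changes was not tested.

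Dim members depend on the background step. Klf5, undetected in adult cells, was fitted at 2.66 for YFP-positive minus adult and -3.82 for adult minus eCSC. Without background correction these were 1.086 and -1.868, and in the raw gene-level values, after quantile normalization, 0.715 and -1.409. Klf4 went from 3.33 to 2.134 and 1.928, and from -2.38 to -1.361 and -1.235. All were still called.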
